A study of Mus musculus with 12 samples.

Results

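Common fragile sites are stretches of the genome that tend to break or to show gaps when DNA replication is slowed, and many of them lie within genes of exceptional length. A polymerase needs many hours to cross such a gene, most of which is intron, while the mature mRNA and the protein can be of ordinary size. Fhit and Wwox, a hydrolase of diadenosine polyphosphates and an oxidoreductase with WW domains, are the best known of these genes and are often deleted in carcinomas. Cisplatin (Cis) forms platinum adducts that crosslink DNA bases and block polymerases.

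The genes described here are 8 giant genes at common fragile sites, Fhit, Wwox, Immp2l, Exoc4, Rad51b, Magi1, Ptprg and Nbea, chosen by symbol and by having a read in at least 1 PBS library. Of these 8 genes, 6 had such a read. Fhit and Ptprg were not listed in any of the 12 libraries and have no value. The 6 genes are 6 of 14070 transcripts with a read in a PBS library. KPC cells, 1 mouse line of pancreatic ductal adenocarcinoma (PDAC) from tumors with a Trp53 R172H allele and Pdx1-Cre, carried the same engineered alleles in every group. Cells received 20 μM Cis for 6 h or 21 h, or PBS, which the sample labels call untreated and whose duration is not labelled. Ribosome profiling, which sequences the mRNA fragments protected by ribosomes (footprints), and RNA-seq from the lysates were each done in 2 libraries per group, 12 libraries in all. The same PBS libraries were the control at both times, so the changes at 6 h and at 21 h share them. Nothing in the labels says that replicates were separate cultures, so p-values measure the spread between these libraries, which may be technical.

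Values are RPKM, in which reads are divided by a length and by the library's total. The length is that of the coding sequence in ribosome profiling and that of the full mRNA in RNA-seq. The RPKM values kept whole reads, which are given below as reads. Footprint libraries held 3375480 to 5204127 reads. RNA-seq libraries held 1985344 to 2901692 reads, of which Lars2, Tmem38b and Mettl26 took 51.8 to 56.6%, so a change in RNA was measured on fewer reads than a change in footprints. Changes are on the log2(RPKM + 0.5) scale after scaling between libraries, which understates the change of genes with low values, and were tested two-sided with limma. The threshold was 0.05 after Benjamini-Hochberg adjustment over all transcripts tested. In bulk samples, fewer cells of a type and less RNA per cell cannot be told apart. Of 8 epithelial markers, 7 or 8 had a read in each group of each assay, and their summed footprint level was 9113 to 9794 RPKM with PBS, 9314 to 9371 at 6 h and 6728 to 6861 at 21 h. Krt8, Krt18 and Krt19 made up most of that sum, while Epcam and Cldn4, which also mark epithelial cells, had at most 9 footprint reads in a library. Markers of leukocytes, endothelium and stroma summed to 6.28 to 17.1 footprint RPKM, with Cd3e not listed. Their part in the results below was not tested.

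The 6 genes span far more DNA than their transcripts. By the RefSeq annotation of GRCm38.p6, used for lengths only because the deposited values rest on GRCm39, Immp2l spans 931.528 kb, Wwox 913.078 kb, Exoc4 724.89 kb, Magi1 608.477 kb, Nbea 558.554 kb and Rad51b 550.979 kb. The median span of all transcripts was 22.017 kb, and 0.856% of transcripts came from a gene at least as long as Rad51b. The deposited Immp2l transcript is 1147 bases long, 0.123% of its gene, and encodes 175 codons. The Nbea transcript, the longest of the 6 at 10986 bases, is 1.97% of its gene and encodes 2936 codons. The proteins thus differed widely in size, while the genes spanned 550.979 to 931.528 kb.

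With PBS, Exoc4, a subunit of the exocyst that tethers secretory vesicles to the plasma membrane, had the most footprints per length of the 6 genes, at 27.0 ± 0.584 RPKM (SD, n = 2). Immp2l, part of the peptidase that trims presequences at the inner mitochondrial membrane, followed with 16.3 ± 2.36 RPKM. These levels lay at the 60.0th and 48.0th percentile of 10383 transcripts tested. Wwox had 6.66 ± 3.06 RPKM and Magi1, a scaffold of epithelial cell junctions, 5.55 ± 0.952, and their libraries overlapped. Nbea (neurobeachin), a large scaffold of vesicle traffic, and Rad51b, which acts in homologous recombination, were lowest with 3.82 ± 0.0934 and 3.76 ± 0.117 RPKM, and also overlapped. In RNA-seq, Exoc4 was again highest with 6.04 ± 0.864 RPKM. Magi1, Wwox, Nbea and Immp2l lay between 2.26 and 2.79 RPKM on average, and neighbours in this order overlapped, whereas Magi1 lay above Immp2l in every library. Rad51b, at 0.737 ± 0.517 RPKM, was covered by 2 and 7 reads and fell below the minimum mean of 1 RPKM for the RNA-seq test.

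The sequences just upstream of the annotated starts are shown to set the start regions of genes that moved together beside each other, since the members share length but not function. The RefSeq promoter table of GRCm38.p6 has a window for the 5' end of Exoc4, Immp2l, Nbea and Rad51b, and the 150 bases before the start are given 5' to 3' on the gene's strand, with CG pairs in capitals.
Exoc4 (chr6:33248978-33249127, plus strand): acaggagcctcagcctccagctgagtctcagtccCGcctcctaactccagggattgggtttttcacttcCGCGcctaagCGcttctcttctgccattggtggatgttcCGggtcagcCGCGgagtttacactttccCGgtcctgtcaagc
Immp2l (chr12:41023940-41024089, plus strand): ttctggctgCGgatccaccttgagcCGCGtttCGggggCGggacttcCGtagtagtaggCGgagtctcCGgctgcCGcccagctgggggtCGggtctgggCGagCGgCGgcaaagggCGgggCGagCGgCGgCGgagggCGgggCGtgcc
Nbea (chr3:56183702-56183851, minus strand): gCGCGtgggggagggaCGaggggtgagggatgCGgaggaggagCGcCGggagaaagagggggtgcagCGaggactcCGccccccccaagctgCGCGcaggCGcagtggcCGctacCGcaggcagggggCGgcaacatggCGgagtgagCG
Rad51b (chr12:79297132-79297281, plus strand): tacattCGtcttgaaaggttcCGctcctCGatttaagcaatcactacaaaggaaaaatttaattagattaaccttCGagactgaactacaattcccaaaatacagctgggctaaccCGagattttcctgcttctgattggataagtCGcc
Over the full window of 300 bases, Immp2l held 32 CG pairs and Nbea 36, against a median of 7 over 32851 promoters, while Exoc4 held 13 and Rad51b 10. None of these 4 windows held TATAAA on either strand, which 13.6% of all promoters did. CCAAT on either strand was in the Exoc4, Immp2l and Rad51b windows and in 37.4% of all promoters, and GGGCGG was in the Immp2l and Nbea windows and in 35.7% of all promoters. The start regions thus ranged from CG-rich to average, and a match is a description of letters, not a site.

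After 21 h of Cis, the footprints on all 6 genes had fallen. Summed over the 6 genes, the PBS libraries held 813 and 744 footprint reads, the 6 h libraries 464 and 339 and the 21 h libraries 49 and 47. Per 1000000 reads of the library, these are 156 and 160 with PBS, 98.9 and 100.4 at 6 h and 13.3 and 13.5 at 21 h. Of the 6 genes tested, 6 were lower at 21 h than with PBS, where 20.2% of all 10383 transcripts were lower. Their median change was -2.74, while the median over all transcripts was 0.01. In all 6 genes, both 21 h libraries lay below both PBS libraries, which was so for 35.0% of all transcripts tested.

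Exoc4 had the most reads and the smallest error. Its footprint reads were 405 and 374 with PBS, 265 and 200 at 6 h, and 20 and 19 at 21 h. The 21 h libraries agreed closely with each other, and no libraries of different groups overlapped. The log2 change of footprints at 21 h was -3.58 (SE 0.16, adjusted p = 5.77e-06 from limma). From pooled reads over scaled depth, 6.71% of the PBS level was left (exact 95% interval 4.74 to 9.26%, which covers counting error only, as do the intervals below). RNA-seq reads went from 79 and 76 with PBS to 36 and 32 at 6 h, and to 2 and 3 at 21 h. This is 3.70% of the PBS level (1.18 to 8.82%) and a log2 change of -3.17 (SE 0.29, adjusted p = 0.000144 from limma).

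Immp2l encodes the smallest of the 6 proteins. It had 40 and 44 footprint reads with PBS, 36 and 23 at 6 h, and 1 and 2 at 21 h. The 6 h libraries stayed close to PBS and the fall came between 6 h and 21 h. Footprints at 21 h were 20.9-fold lower than with PBS by pooled reads, with a wide counting interval of 6.91 to 103-fold, and the log2 change was -3.74 (SE 0.26, adjusted p = 3.1e-05 from limma). Its RNA-seq reads were few, at 6 and 8 with PBS, 3 and 5 at 6 h, and 2 and 0 at 21 h. The change in RNA was -1.81 (SE 0.44, adjusted p = 0.0159 from limma). Without either PBS library or without the second 21 h library this RNA call was lost, with adjusted p from limma between 0.0773 and 0.0918. The log2 change in RNA was -2.45 without the first 21 h library and -1.16 without the second.

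Magi1 had the lowest share of its footprints left at 21 h, with an interval that overlaps those of Immp2l, Exoc4, Nbea and Rad51b. Its footprint reads were 112 and 128 with PBS, 40 and 25 at 6 h, and 3 and 3 at 21 h. The 3 groups did not overlap, and the 6 h libraries already held well under the PBS reads. Footprints at 21 h were 3.35% of PBS (1.22 to 7.40%), a log2 change of -3.14 (SE 0.31, adjusted p = 0.000159 from limma). The RNA-seq reads went from 44 and 65 through 13 and 16 to 1 and 5. Magi1 RNA at 21 h was thus 6.31% of PBS (2.27 to 14.2%), a log2 change of -2.28 (SE 0.36, adjusted p = 0.00206 from limma). Without the second PBS library Magi1 fell below the RNA-seq filter and was not tested.

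Nbea had 178 and 154 footprint reads with PBS, 73 and 54 at 6 h, and 12 and 11 at 21 h. Replicates lay close together at each time and the groups did not overlap. At 21 h, 9.29% of the footprints were left (5.81 to 14.2%), and the log2 change was -2.34 (SE 0.30, adjusted p = 0.000538 from limma). The RNA-seq reads were 54 and 87 with PBS, 44 and 40 at 6 h, and 11 and 14 at 21 h. At 21 h, 20.3% of Nbea RNA was left (12.7 to 31.3%), and whether this share differed from that of other members was not tested. The log2 change of Nbea RNA was -1.52 (SE 0.32, adjusted p = 0.00868 from limma). This RNA call was lost without the second PBS library (adjusted p = 0.0802 from limma).

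Wwox had the largest share of its footprints left at 21 h, with an interval that overlaps that of Rad51b. The footprint reads were 57 and 26 with PBS, 27 and 22 at 6 h, and 8 and 12 at 21 h, and in RPKM the second PBS library lay below both 6 h libraries and above both 21 h libraries. At 21 h, 32.3% of the footprints were left (18.8 to 53.1%), and the log2 change was -1.36 (SE 0.33, adjusted p = 0.0114 from limma). The call was lost without the first PBS library (log2 change -0.93, adjusted p = 0.0926 from limma) and without the first 21 h library (adjusted p = 0.0546 from limma). In RNA-seq, Wwox had 18 and 11 reads with PBS, 10 and 4 at 6 h, and 0 in both libraries at 21 h. Against a floor of 3 reads over the group of 2 libraries, Wwox RNA was at least 8.43-fold lower at 21 h than with PBS (adjusted p = 0.00443 from limma) and at least 5.33-fold lower than at 6 h. Without the first PBS library it fell below the RNA-seq filter and was not tested.

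Rad51b had the fewest reads. Its footprint reads were 21 and 18 with PBS, 23 and 15 at 6 h, and 5 and 0 at 21 h. In RPKM the 6 h libraries lay above PBS and both 21 h libraries lay below it. The log2 change of footprints at 21 h was -2.19 (SE 0.51, adjusted p = 0.01 from limma), and 17.2% of the PBS level was left (5.29 to 43.6%). Its size rested on single 21 h libraries, at -3.09 without the first and -1.27 without the second. The call was just lost without either PBS library (adjusted p = 0.0545 and 0.0555 from limma). In RNA-seq it had 2 and 7 reads with PBS, 2 and 3 at 6 h, and 1 and 0 at 21 h, and it was not tested there. By pooled reads, Rad51b RNA at 21 h was 7.85-fold lower, with a counting interval of 1.09 to 344-fold.

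**Figure D1:**
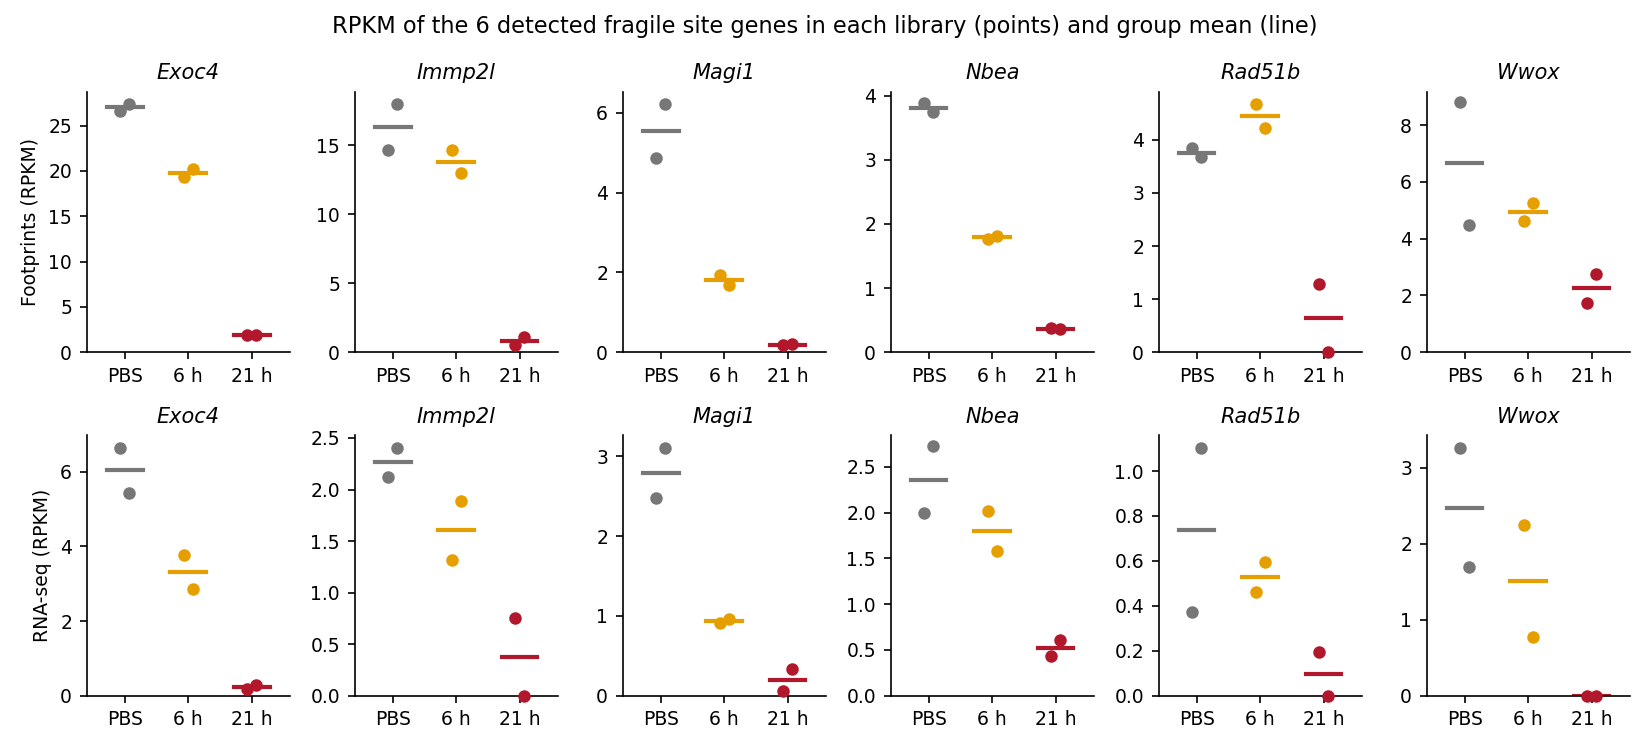
RPKM of footprints (top) and RNA-seq (bottom) for each of the 6 genes with PBS and after 6 h and 21 h of Cis, each panel on its own linear axis from 0. Points are the 2 libraries of a group and lines their mean, and the 21 h points lie below the PBS points in every panel, with Wwox RNA at 0 in both.

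In RNA-seq at 21 h, 5 of 5 genes tested were lower, against 12.2% of all 9443 transcripts. Their median change was -2.28, also with Wwox placed at its bound, while the median of all transcripts was 0.02. The order of the members by reads left differed between the assays, within wide counting intervals. In RNA the intervals of Exoc4, Magi1, Immp2l, Rad51b and Wwox overlapped, and a difference in order was not tested. By share of footprints left, Magi1, Immp2l and Exoc4 were at 3.35 to 6.71%, followed by Nbea, Rad51b and Wwox. The footprint intervals of Magi1, Immp2l, Exoc4, Nbea and Rad51b all overlapped. In RNA, Wwox was the only one of the 6 genes with no read at 21 h.

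At 6 h, no member passed the threshold in either assay, while Magi1 and Nbea had the lowest levels relative to PBS in footprints. Of 6 genes tested for footprints, 0 were called lower (limma), where 0.992% of all transcripts were. At an unadjusted p under 0.05 there were 3 members, all lower, and 2217 of all 10383 transcripts in either direction. With limma's voom on the recovered reads, 3 of the 6 were lower, against 7.92% of all transcripts. These 3 were Magi1 (log2 change -1.40, adjusted p = 0.0557 from limma), Nbea (-0.93, adjusted p = 0.126) and Exoc4 (-0.45, adjusted p = 0.152) by the reported test. Magi1 footprints at 6 h were 32.8% of PBS (24.5 to 43.3%) and Nbea footprints 46.3% (37.5 to 57.0%), whereas Exoc4 footprints were 72.3% (64.3 to 81.2%). The footprint level of Rad51b was 118% of PBS at 6 h, with an interval of 73.5 to 189% that includes 100%. Magi1 also passed with a pseudocount of 1 or with only PBS and 6 h in the model (adjusted p = 0.0401 and 0.031 from limma), while the adjusted p over all alternatives ran from 3.49e-05 with voom to 0.285.

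In RNA-seq at 6 h, 0 of 5 members passed (limma), 2 had an unadjusted p under 0.05, and voom called Magi1 alone. Of all transcripts, 0% were called lower, and 1086 of 9443 had an unadjusted p under 0.05. Magi1 RNA was at 34.9% of PBS (22.3 to 52.9%) and Exoc4 RNA at 57.5% (42.6 to 77.0%). The other members lay between 63.3 and 78.1% of PBS, with intervals that include 100%.

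Between 6 h and 21 h, footprints fell further on 6 of 6 members (limma), against 15.7% of all transcripts. Immp2l had the largest drop, with a log2 difference of -3.50 (SE 0.26, adjusted p = 8.83e-05 from limma), which placed it at rank 4 of 10383 from the lowest. Exoc4 changed by -3.12 (SE 0.16) and Rad51b by -2.39 (SE 0.51), or -3.30 and -1.48 without the first and the second 21 h library. Magi1, which had the lowest level at 6 h relative to PBS, changed by -1.74 (SE 0.31), Nbea by -1.41 (SE 0.30) and Wwox by -1.02 (SE 0.33, adjusted p = 0.0456 from limma). The order depended on the scale, which understates the change of genes with low values. By pooled reads Magi1 was 9.79-fold lower at 21 h than at 6 h (4.26 to 27.6). Rad51b was 6.87-fold lower (2.70 to 22.4), so their intervals overlap. The Wwox call was lost under 9 of 13 alternatives, with the adjusted p from limma reaching 0.174. In RNA, 3 of 5 members fell further, Exoc4, Wwox and Nbea, against 8.21% of all transcripts. Immp2l and Magi1 RNA changed by -1.46 and -1.14 (adjusted p = 0.0506 and 0.0576 from limma). Without the scaling factors the split of all calls in this comparison moved from 775 lower and 711 higher to 514 lower and 1234 higher, with 3 of 5 members lower in both.

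**Figure D2:**
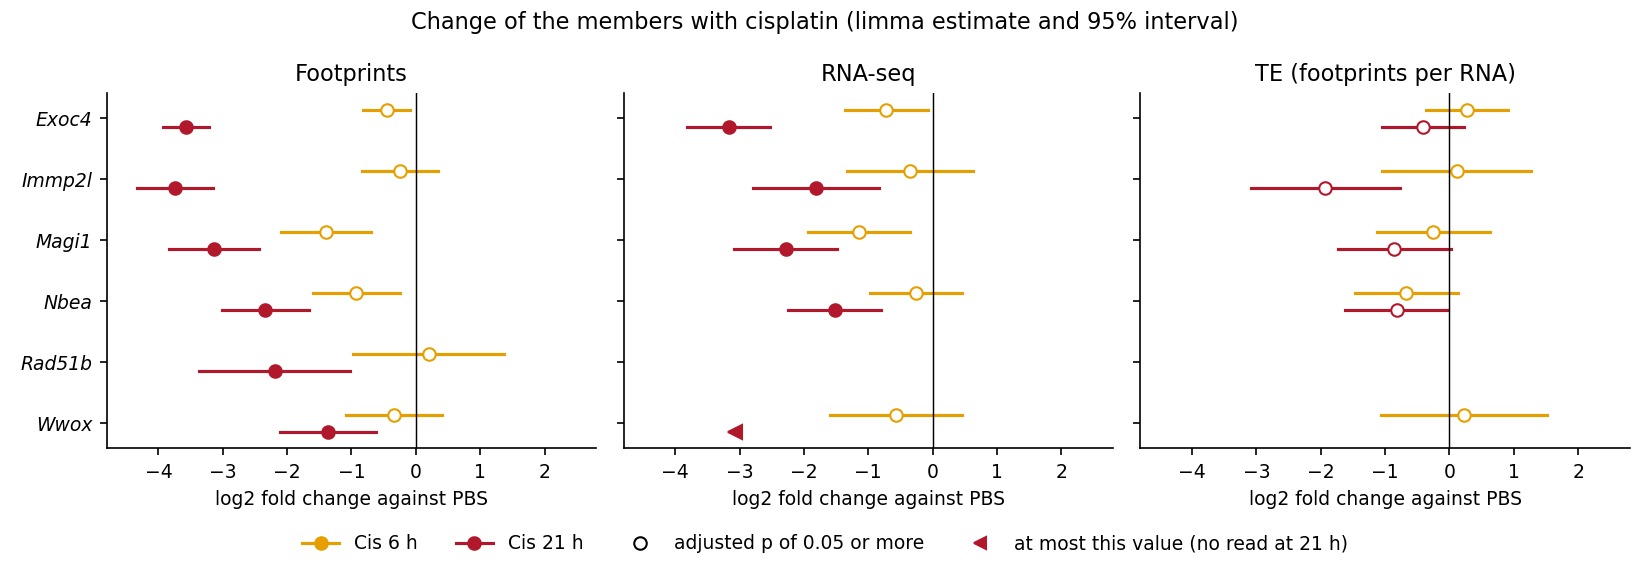
Change of each of the 6 genes against PBS on the log2 scale for footprints, RNA-seq and TE, as limma's estimate with its 95% interval after 6 h (orange) and 21 h (red) of Cis. The triangle is the upper bound for Wwox RNA at 21 h, which had no read, and its TE at 21 h is not drawn. Filled points passed an adjusted p under 0.05: all 6 genes in footprints and 5 of 5 in RNA-seq at 21 h, and none at 6 h or in TE.

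The ratio of footprints to RNA (translational efficiency, TE) was tested for the 5 members that passed the filter in both assays. With PBS, the ratio of the deposited RPKM values was 7.19 ± 0.417 (SD, n = 2) for Immp2l and 4.53 ± 0.744 for Exoc4, and lower for Wwox (2.68 ± 0.0341), Magi1 (1.98 ± 0.0250) and Nbea (1.66 ± 0.404). By the ratio of scaled mean RPKM with 0.5 added to each, Immp2l lay at the 82.8th percentile of 9295 transcripts and Nbea at the 14.9th. At 6 h and at 21 h, 0 of 5 members passed in TE (limma), against 0% and 0.151% of all transcripts called lower. At an unadjusted p under 0.05 there were 0 members at 6 h and 2 at 21 h, against 710 and 1183 of all 9295 transcripts in either direction, and voom called 0 members at both times. At 21 h, the change in TE was -1.93 for Immp2l (95% interval -3.08 to -0.77, adjusted p = 0.151 from limma). It was -0.41 for Exoc4 (-1.04 to 0.23), -0.86 for Magi1 (-1.74 to 0.02) and -0.82 for Nbea (-1.62 to -0.02). For Wwox no ratio could be formed at 21 h, since its RNA had no read, and its fitted TE change, 0.54 to 3.10 over the alternatives, moved with the pseudocount. With a pseudocount of 1, Immp2l passed (adjusted p = 0.0425 from limma), and in the other alternatives its adjusted p reached 0.669. The TE change of Exoc4 at 21 h turned positive in 3 of the alternatives. The ratio of its deposited RPKM values was 6.09 ± 1.35 (SD, n = 2) at 6 h and 8.34 ± 2.95 at 21 h, above PBS. Exoc4 RNA at 21 h, 0.238 RPKM on 2 and 3 reads, lay below the 0.5 added in the fit. So did Immp2l RNA (0.374 RPKM), Magi1 RNA and footprints (0.196 and 0.190) and Nbea footprints (0.364). The TE changes of these genes at 21 h thus rest partly on the pseudocount. Other genes over 400 kb had a median TE change of -0.65 at 21 h (57 genes), and a difference of the members from them was not tested. The ratio of deposited RPKM values at 21 h was 1.84 ± 1.77 for Magi1, 0.723 ± 0.193 for Nbea, and 0.690 in the first library for Immp2l.

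Most genes of like length moved in the same direction, so the values of the members are given beside theirs. Other genes over 400 kb had a median footprint change of -2.58 at 21 h (quartiles -3.35 and -1.45, 76 genes), and 88.2% of them were called lower. Genes under 25 kb had a median of 0.20, and 7.50% were called lower. The median fell from class to class between these ends, to 0.01 at 25 to 50 kb, -0.33 at 50 to 100 kb, -0.88 at 100 to 200 kb and -1.83 at 200 to 400 kb. In RNA-seq at 21 h the median was -2.12 over 400 kb (59 genes) and 0.16 under 25 kb. Among the 82 tested genes over 400 kb, the 6 members included, the footprint changes of Immp2l, Exoc4 and Magi1 were 7th, 11th and 27th from the lowest, and those of Nbea, Rad51b and Wwox were 47th, 52nd and 64th. On this scale, which understates the change of genes with low values, the members lay on both sides of the median for genes of their length. By pooled reads, footprints at 21 h were 29.8-fold lower for Magi1, 20.9 for Immp2l, 14.9 for Exoc4, 10.8 for Nbea, 5.82 for Rad51b and 3.10 for Wwox. The ranks thus depend on the scale, and a difference from genes of like length was not tested. At 6 h the median over 400 kb was -0.82 for footprints, and 4 of the 6 members were above it. Span is not the only property in which such genes differ, and the part of others was not tested. Pde4b, at 519.944 kb, was the 1 gene over 400 kb called higher in footprints at 21 h (log2 change 0.78, adjusted p = 0.00503 from limma).

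**Figure D3:**
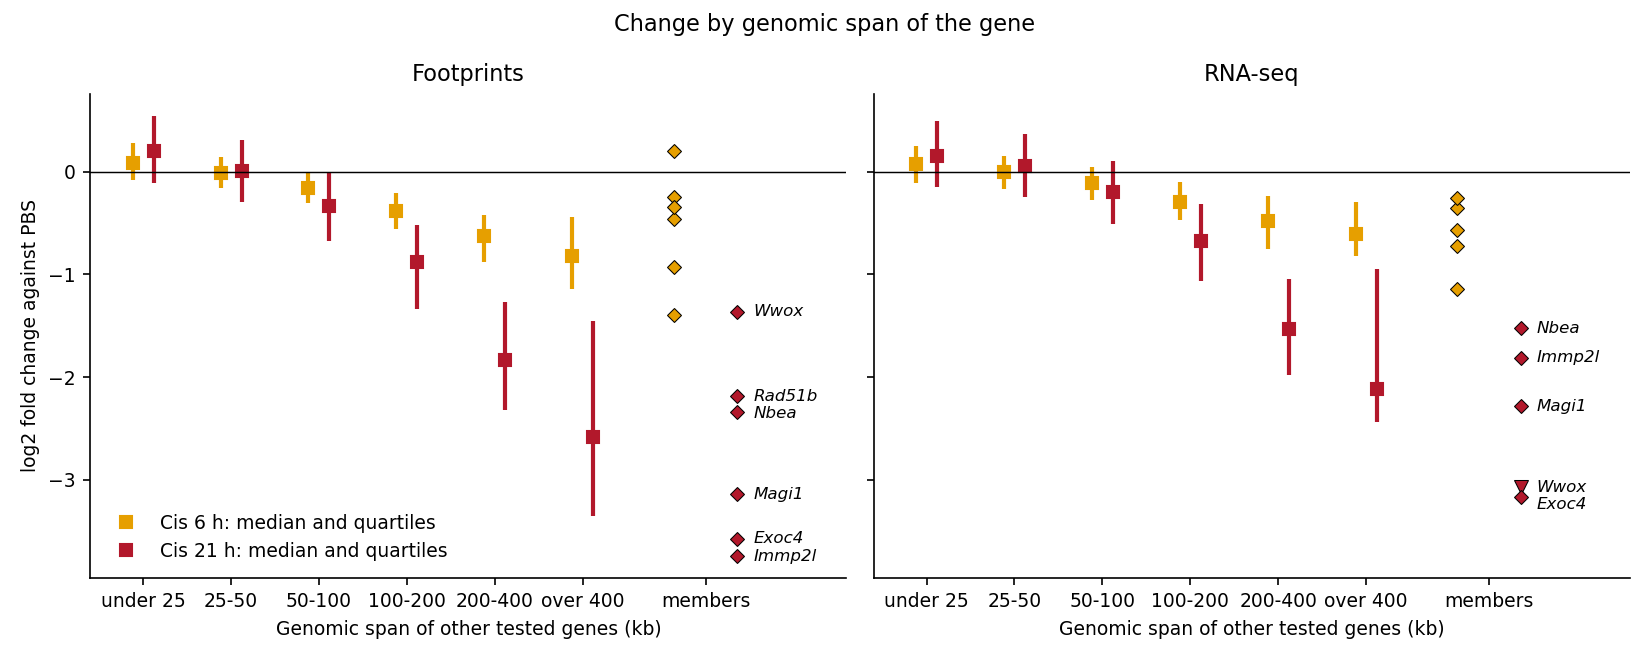
Change against PBS on the log2 scale by genomic span of the gene, for footprints (left) and RNA-seq (right) after 6 h (orange) and 21 h (red) of Cis. Squares are medians of all other tested genes of a class and bars their quartiles, diamonds are the members (6 in footprints, 5 in RNA-seq, with a triangle for the upper bound of Wwox RNA at 21 h), and the 21 h medians for footprints go from 0.20 under 25 kb to -2.58 over 400 kb.

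Most other large genes at fragile sites had few reads in these cells. Of 19 such genes listed beside the members, 16 had a read in some library and 4 passed the filter for testing. At 21 h, 2 of the 4 were lower and 0 higher in each assay, where 20.2% of all transcripts were lower in footprints and 12.2% in RNA. All 4 span over 400 kb. Among tested genes over 400 kb other than the members, 88.2% were lower in footprints and 79.7% in RNA. A difference of the 4 from genes of like length was not tested. Lpp, a focal adhesion protein, had 211 and 183 footprint reads with PBS and 6 and 13 at 21 h, a log2 change of -3.60 (SE 0.27, adjusted p = 5.05e-05 from limma). Foxp1, a forkhead transcription factor, changed by -1.02 (SE 0.15). Macrod2, which removes ADP-ribose from proteins, and Pde4d, a phosphodiesterase of cyclic AMP, did not pass, with changes of -0.41 (SE 0.24) and 0.06 (SE 0.14). Pde4d spans 1301.79 kb, more than any of the 6 members, and had 157 and 159 footprint reads at 21 h against 221 and 186 with PBS. Thsd7a, an adhesion protein below the filter, had 23 and 23 footprint reads with PBS and 2 and 0 at 21 h.

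Partners and relatives of the members were compared to see whether other parts of the same complexes changed. Of 23 partners or relatives, 21 were tested for footprints at 21 h, 5 were lower and 3 higher, against 20.2 and 18.9% of all transcripts, and their median was -0.21. In RNA-seq, 4 of 21 were lower and 1 higher, against 12.2 and 11.6% of all transcripts. Of the 8 other exocyst subunits, 3 had fewer footprints at 21 h and 1 had more. Exoc6b, at 451.773 kb the only other subunit over 400 kb, changed by -3.49 (SE 0.20), close to Exoc4. Exoc6 and Exoc2 changed by -1.54 (SE 0.23) and -0.75 (SE 0.19). Exoc8, the shortest gene of the complex at 7.407 kb, rose by 0.53 (SE 0.18, adjusted p = 0.0465 from limma). Exoc7 and Exoc1 did not pass, at -0.34 (SE 0.13) and -0.13 (SE 0.20). Exoc4 made up 16.3 and 16.7% of the footprint RPKM summed over the 9 subunits with PBS, 13.8% in both 6 h libraries, and 1.62 and 1.90% at 21 h. Its share of the summed RNA RPKM was 15.5 and 12.6% with PBS, and 0.586 and 1.004% at 21 h. The share of Exoc4, encoded by the longest gene of the 9, was thus lower at 21 h in every library of both assays.

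Rad51b was compared with 4 related recombination genes, Rad51c, Rad51d, Xrcc2 and Xrcc3, each spanning under 30 kb. Of these 4 genes, 2 had more footprints at 21 h and 0 fewer, against 18.9 and 20.2% of all transcripts. Among all other tested genes under 25 kb, 28.3% had more, and a difference of these 4 from them was not tested. The log2 change was 1.21 for Xrcc3 (SE 0.26; limma, adjusted p = 0.00642) and 0.52 for Xrcc2 (SE 0.17, adjusted p = 0.0423). Rad51c had more RNA, at 1.17 (SE 0.32, adjusted p = 0.0277 from limma), and a footprint change of 0.19 (SE 0.32). Rad51d was at -0.11 (SE 0.17). Xrcc3 rested on 11 and 11 footprint reads with PBS and 21 and 22 at 21 h.

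Immp1l, the other catalytic subunit beside Immp2l, spans 60.921 kb and changed by -0.39 in footprints at 21 h (SE 0.16, adjusted p = 0.0804 from limma). Magi3, a relative of Magi1 that spans 207.148 kb, was lower in footprints at 6 h (-0.89, SE 0.17, adjusted p = 0.0385 from limma) and at 21 h (-1.33, SE 0.17). Magi2 had at most 4 reads in a library. Among the BEACH proteins, Lrba, which spans 559.239 kb, went from 166 and 161 footprint reads with PBS to 4 and 5 at 21 h, a log2 change of -2.77 (SE 0.30). Nbeal1 and Nbeal2 did not pass, at -0.59 (SE 0.36) and -0.10 (SE 0.28). Of the 4 relatives of Fhit with a HIT domain, 0 passed at 21 h in either assay (limma), and 0 had an unadjusted p under 0.05. Of all transcripts, 20.2% were lower and 18.9% higher in footprints, and 12.2 and 11.6% in RNA. An unadjusted p under 0.05 was found for 5045 of 10383 transcripts in footprints and 3491 of 9443 in RNA. Their footprint changes at 21 h lay between -0.27 and 0.22, with a median of -0.06. Ptprz1, the relative of Ptprg, had 1 read over the 12 libraries.

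**Figure D4:**
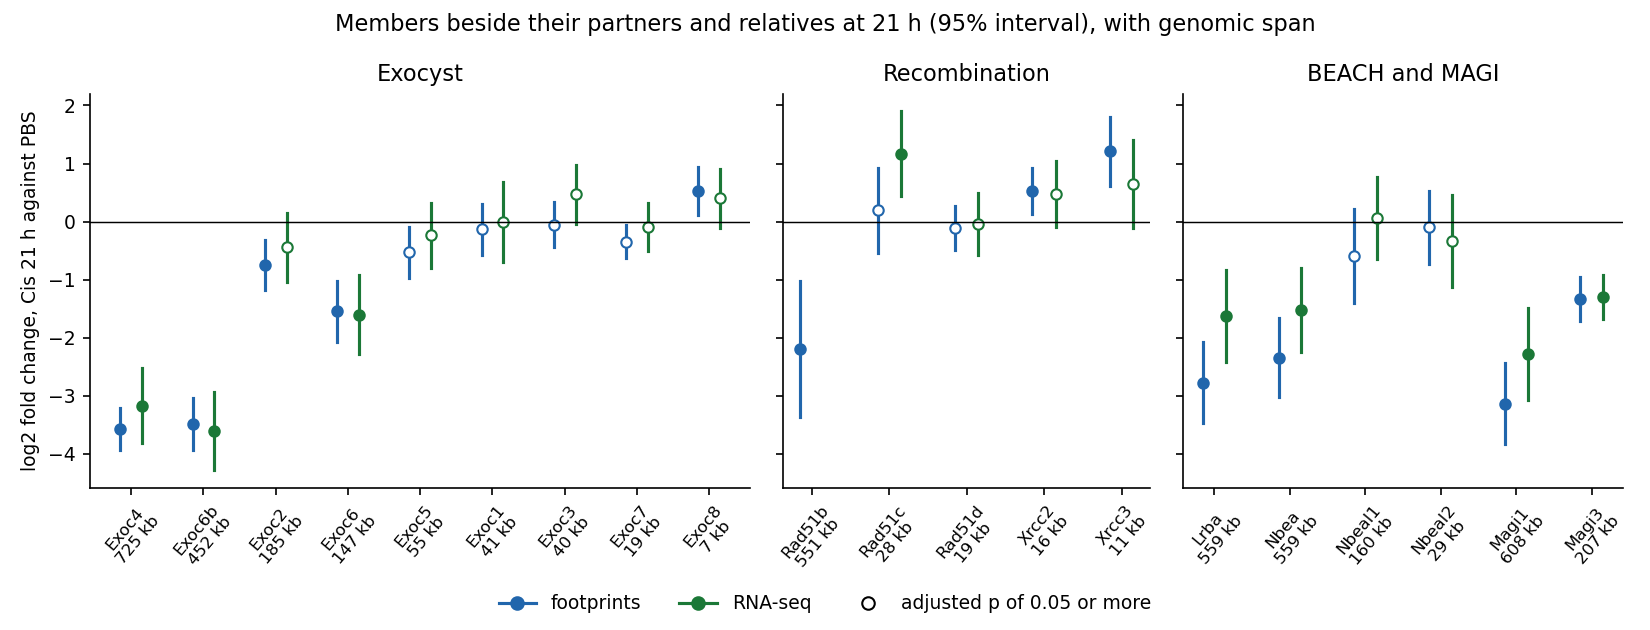
Change of the members and their partners or relatives at 21 h against PBS on the log2 scale, for footprints (blue) and RNA-seq (green), with 95% intervals and the genomic span under each name. Filled points passed an adjusted p under 0.05, and Exoc4, Exoc6b, Lrba, Nbea and Magi1, all over 400 kb, are lower in both assays, as are the shorter Exoc6 and Magi3.

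The nearest tested genes on either side of the 8 loci were named from the RefSeq annotation. Of 14 such genes, 4 were lower and 3 higher in footprints at 21 h, against 20.2 and 18.9% of all transcripts, with a median of 0.09. Chchd3, beside Exoc4, and Dock4, beside Immp2l, were lower, with log2 changes of -2.15 (SE 0.11) and -2.07 (SE 0.38), and span 268.067 and 400.918 kb. Adamts9, beside Magi1, and Slc35b4, beside Exoc4, were also lower, at -1.71 (SE 0.37) and -0.61 (SE 0.20), and span 171.752 and 21.183 kb. Dnajb9, beside Immp2l, and Tm4sf1, beside Nbea, were higher, at 0.50 (SE 0.14) and 0.28 (SE 0.07), and span 4.172 and 102.126 kb. Zfp36l1, which follows Rad51b and spans 5.254 kb, was also higher, with a log2 change of 1.54 (SE 0.17, adjusted p = 0.000277 from limma). Zfyve26, on the other side of Rad51b, was at 0.19 (SE 0.31). Maf and Nudt7, which flank Wwox, were at -0.23 (SE 0.21) and 0.25 (SE 0.16). The called neighbours of Immp2l, Dock4 and Dnajb9, thus differed in direction, while Chchd3 and Slc35b4, beside Exoc4, were lower. Kctd6 and Thoc7, which flank both Fhit and Ptprg among tested genes, had 0.22 (SE 0.18) and -0.01 (SE 0.11).

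The 5 transcripts whose pattern over the 12 libraries was most like the mean of the 5 members tested in both assays were Mthfd1l, Dock1, Stk39, Myo1d and Stag1. Values were centred within each assay, and Pearson's r was 0.993 to 0.996 as a description, since libraries of a group share their treatment and 9290 transcripts were ranked. These genes span 194.19 to 502.961 kb. Mthfd1l, a mitochondrial enzyme of folate metabolism, had log2 changes of -2.09 in footprints and -1.95 in RNA at 21 h. Stk39, a kinase that controls ion transporters, had -3.21 and -2.92.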

How the data were processed

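RPKM values were deposited by the authors for each library and for 1 transcript per gene, without pooling. The submitters' processing notes name cutadapt, STAR and the build GRCm39, with no versions, and whether counting used strand is not given in the sources used here. RPKM times length was a whole multiple of the value of 1 read for 100% of values (tolerance 0.0001), which gave the reads per transcript. A transcript absent from a library's list was taken as 0 reads. The members and all gene lists were chosen with earlier results of these data known, and some listed genes and alleles are not reported here.

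Median-of-ratios factors, computed separately for footprints and RNA-seq, put the libraries on the same scale. The tests took transcripts whose scaled RPKM averaged 1 or more (10383 for footprints, 9443 for RNA-seq, 9295 in both for TE). The log2 of RPKM + 0.5 entered a linear model (limma 3.58.1, R 4.3.3, eBayes with a trend) that held the PBS, 6 h and 21 h libraries together, and TE was the interaction over the 12 libraries. An exact permutation test of 2 against 2 libraries cannot give a two-sided p below 0.333. The chi-square of replicate reads, divided by its degrees of freedom, was 1.45 to 3.97, above sampling noise in every group, so each library was counted. Means ± SD are of the deposited RPKM. Counting intervals are exact binomial (Clopper-Pearson) at 95%, over depth times the scaling factor, and the floor for a group without reads was 3 reads over its 2 libraries. Partners and other fragile site genes are given by counts, with at most 6 named per list, first those past the threshold and then those with most PBS reads. Spans came from RefSeq genes on GRCm38.p6 for 15657 of 15803 transcripts (99.1%, 17 by synonym), and promoter sequences from the RefSeq table of that build. The alternatives were other pseudocounts, filters and scalings, eBayes without the trend, voom on the recovered reads, fewer groups in the model, a replicate block, RNA-seq without the 3 transcripts with most reads, and each library left out. The fit was checked on simulated data. Python 3.11.15, pandas 2.3.3, numpy 2.4.6, scipy 1.17.1 and matplotlib 3.10.9 were used.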

Additional observations from a re-analysis of the deposited data

Results flagged for a closer look

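The effects of Cis at 6 h and at 21 h, which share their PBS libraries, differed for every member in footprints and for 3 members in RNA, by the test of 21 h against 6 h itself (limma with Benjamini-Hochberg adjustment over all transcripts). In footprints the log2 difference of 21 h against 6 h was -3.12 for Exoc4 (adjusted p = 2.18e-05), -3.50 for Immp2l (8.83e-05) and -1.74 for Magi1 (0.00411). It was -1.41 for Nbea (adjusted p = 0.00857 from limma), -2.39 for Rad51b (0.00956) and -1.02 for Wwox (0.0456). In RNA it was -2.45 for Exoc4 (adjusted p = 0.000905 from limma) and -1.26 for Nbea (0.0269). With no RNA read at 21 h, Wwox was lower than at 6 h by at least 5.33-fold, and its fitted difference of -1.94 (adjusted p = 0.0209 from limma) rests on the pseudocount. The Wwox call in footprints was lost in 9 of 13 alternatives, and the RNA calls of Nbea and Wwox in 6 and 4 of 14. The footprint calls of Rad51b and Nbea were each lost without 1 of the 6 h libraries, the first and the second (adjusted p = 0.0507 and 0.0510 from limma).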

How the results depend on the processing

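Over 43 tests of a member, 572 of 622 alternative values kept their direction and their side of the threshold, 29 dropped below it, 13 passed it and 8 changed sign. Counts of members called lower are given next. In footprints at 6 h, where 0 of 6 members were called, 1 was with a pseudocount of 1, 1 with only the groups compared and 3 with voom. In RNA at 6 h voom called 1. A minimum mean RPKM of 5 left 2 members to test in footprints, both lower at 21 h against PBS and against 6 h, and 0 in RNA, hence 0 calls in both. Without a filter 1 member fell in RNA from 6 h to 21 h. With a library left out, 2 to 5 members were lower in RNA at 21 h and 1 to 2 from 6 h to 21 h. Without either PBS library 4 members passed the RNA filter, Wwox falling out without the first and Magi1 without the second. In TE at 21 h 1 member passed with a pseudocount of 1. The TE change of Exoc4 at 21 h was 0.43 with a pseudocount of 0.1, 0.66 with voom and 0.22 with RNA-seq recomputed without its 3 largest transcripts. With a library left out, the change at 6 h ranged from -0.78 to 0.085 for Wwox footprints, from -0.33 to 0.79 for Wwox TE (-0.21 without the second PBS footprint library), and from -0.0855 to 0.31 for Immp2l TE (-0.06 without the first PBS footprint library), none of them past the threshold. The cause of these differences was not tested. No shared deviation of same-numbered libraries was seen, with replicate differences correlated at -0.08 to 0.07 between groups across 5616 transcripts. The labels do not say whether same-numbered libraries belong together, and a correlation near 0 cannot decide it. A replicate block left the members' counts at 0, 6 and 5 for footprints (6 h, 21 h, 21 h against 6 h), 0, 5 and 3 for RNA and 0 for TE. The Wwox call in footprints from 6 h to 21 h was lost with the block (adjusted p = 0.0624 from limma), and no other call of a member changed. Counts over all transcripts moved more. Transcripts lower in footprints at 6 h numbered 103 in the reported fit, 8 without a filter, 162 with a minimum of 5, 0 without the trend, 822 with voom, 244 with only the groups compared, 20 with the replicate block and 0 to 18 with a library left out. In RNA at 6 h voom called 1.82% of 9443 transcripts lower in place of 0. From 6 h to 21 h, 846 to 1408 in place of 1634 were lower in footprints with a library left out. In RNA at 21 h, 763 in place of 1152 were lower with a minimum of 5 and 548 to 864 with a library left out. From 6 h to 21 h in RNA, 493 in place of 775 were lower without a filter, 430 without the trend, 514 without scaling and 414 to 529 with a library left out. Leaving out the scaling moved the median change of all transcripts in that comparison from 0.01 to 0.15. In TE at 21 h, 14 lower and 24 higher became 16 and 18 without scaling, 13 and 15 with quantile normalization and 7 and 21 without the 3 largest RNA transcripts. Counts lower in TE were also 24 with a pseudocount of 1, 4 without a filter, 30 with a minimum of 5, 0 without the trend, 78 with voom, 1 with only the groups compared, 3 with the replicate block and 1 to 16 with a library left out. At 21 h in RNA, members rested on 0 to 14 reads per library, which limits the precision of every TE value there.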
